A study of Mus musculus with 4 samples.

Results

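The Toll-like receptors are a family of membrane proteins with which macrophages recognise microbial molecules. The 10 genes described here (Tlr1, Tlr2, Tlr3, Tlr4, Tlr6, Tlr7, Tlr8, Tlr9, Tlr12 and Tlr13) were chosen by name, as listed members of the family, and all 10 were measured, among 24055 genes tested. They were measured in primary cultures of Kupffer cells, the macrophages that reside in the liver, from male C57BL/6 mice aged 8 weeks. The cells were isolated by collagenase perfusion and Percoll centrifugation, plated in medium with 10% serum, and kept for 24 h in medium with 0.1% serum that held either 200 nM maresin 1 or its ethanol vehicle. Each group had 2 one-colour arrays, and all cells came from the same strain with no genetic change. Maresin 1, a product of docosahexaenoic acid made by macrophages, is known as a lipid mediator of the resolution of inflammation.

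Some Toll-like receptors sit in the plasma membrane and bind microbial surface molecules, and others sit in endosomes and bind nucleic acids or protein from microbes that have been taken up. TLR2 pairs with TLR1 or TLR6 to bind bacterial lipoproteins, and TLR4 binds lipopolysaccharide with the help of CD14 and the product of Ly96. Most of these receptors signal through the adaptor MyD88 to NF-kappaB, while TLR3 uses the adaptor encoded by Ticam1, which TLR4 uses as well. Kupffer cells line the liver sinusoids, where the portal blood carries bacterial products from the gut.

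All values are log2 of the background-corrected probe signal relative to the 75th percentile of that array, so a value of 0 is a signal at the 75th percentile and a difference of 1 is a 2-fold difference. Levels of different genes come from different probes and are not compared with each other. The share of the 56605 probes well above background was 54.4% to 55.6%, the 75th percentile was 847 to 988 intensity units, and arrays correlated across probes with r = 0.9947 to 0.996 within a group and 0.992 to 0.9928 between groups. All 8 Kupffer cell markers were well above background on all 4 arrays. Clec4f, a lectin restricted to Kupffer cells in mice, was bright, with 6.39 ± 0.06 in vehicle and 6.43 ± 0.05 in maresin 1 cultures (SD, n = 2). No label states that both arrays of a group stem from different cultures or mice, so the p-values cover only array-to-array spread, which may be technical. Both vehicle arrays lay side by side on the slide, as did both maresin 1 arrays, so an effect of position and one of treatment cannot be told apart.

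The promoters of the 3 receptor genes that were lower with maresin 1 are shown with that of Tlr9, which did not pass the test, because the genes moved by different amounts and the sequence next to each start site can be read beside the values. Each is the 250 bases before the start site in RefSeq's annotation of GRCm38.p6, 5′ to 3′ on the gene's strand, in lower case with matches to the motifs searched in capitals. The windows lie at chr3:83841609-83841858 on the minus strand (Tlr2), chrX:106143025-106143274 on the plus strand (Tlr13), chr4:128618620-128618869 on the minus strand (Tlr12) and chr9:106222348-106222597 on the plus strand (Tlr9).
Tlr2: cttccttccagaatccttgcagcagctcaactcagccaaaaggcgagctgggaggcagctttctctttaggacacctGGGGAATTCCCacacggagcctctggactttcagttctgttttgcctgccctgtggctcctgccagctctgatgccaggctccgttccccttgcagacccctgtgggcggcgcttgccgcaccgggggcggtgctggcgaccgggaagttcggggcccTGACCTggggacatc
Tlr13: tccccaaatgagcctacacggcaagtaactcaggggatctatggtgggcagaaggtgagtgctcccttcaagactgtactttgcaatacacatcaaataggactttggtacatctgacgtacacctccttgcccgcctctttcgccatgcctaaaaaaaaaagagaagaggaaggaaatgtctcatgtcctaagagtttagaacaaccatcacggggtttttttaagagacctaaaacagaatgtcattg
Tlr12: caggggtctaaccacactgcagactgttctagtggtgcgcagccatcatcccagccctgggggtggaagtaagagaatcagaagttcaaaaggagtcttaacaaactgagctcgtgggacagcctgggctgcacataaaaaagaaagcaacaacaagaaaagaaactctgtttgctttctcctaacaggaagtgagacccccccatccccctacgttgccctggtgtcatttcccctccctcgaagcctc
Tlr9: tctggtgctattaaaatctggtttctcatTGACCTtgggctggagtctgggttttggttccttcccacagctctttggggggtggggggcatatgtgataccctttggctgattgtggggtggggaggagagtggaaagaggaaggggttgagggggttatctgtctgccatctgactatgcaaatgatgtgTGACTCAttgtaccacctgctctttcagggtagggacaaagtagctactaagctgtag

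Of the 10 genes, 8 had a window in the table of promoters, Tlr1 and Tlr6 with 2 windows each, and Tlr4 and Tlr7 had none. The motifs were searched on both strands. In Tlr2 the capitals mark a match to the degenerate NF-kappaB consensus that starts 173 bases before the start site, and an inverted AGGTCA, the motif of retinoic acid-related orphan receptors, that starts 15 bases before it. The consensus was added after the windows had been read. It matched at 2 overlapping positions in Tlr2, and 7.25% of the 32851 windows in the table held at least 1 match. The motif AGGTCA was in 14% of all windows, and Tlr9 held an inverted copy that starts 221 bases before its start site. Tlr9 also held the AP-1 motif TGANTCA, found in 6.75% of windows. The Tlr13 and Tlr12 windows held none of the motifs searched, which says only that these letters are not in these 250 bases. Among the other members, Tlr3 held GGGAGTTTCC, which matches both the NF-kappaB motif with free bases 4 and 5 (1.41% of windows) and the degenerate consensus. Of the 2 Tlr1 windows, 1 held the PU.1 motif GAGGAAGT (2.44%). The interferon-stimulated response element (2.98%) matched at 2 overlapping positions in 1 Tlr6 window, inverted, as TTTCTCTTTC and TTTCACTTTC, and the STAT6 motif (5.85%) matched in Tlr8 as TTCCTCTGAA. The fixed NF-kappaB motif, in 0.14% of windows, was in none of the members' windows. The share of guanine and cytosine was 62.8% in the Tlr2 window, 44.4% in Tlr13, 51.6% in Tlr12 and 50.4% in Tlr9, where the median over all windows was 52.4%.

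Maresin 1-treated cultures had lower transcript levels of 3 of the 10 Toll-like receptor genes and higher levels of none. Tlr2 was 3.71-fold lower and Tlr13, which encodes an endosomal sensor of bacterial ribosomal RNA, was 2.18-fold lower, whereas Tlr12 was 1.32-fold lower. The other 7 did not pass limma's moderated test with Benjamini-Hochberg adjustment over all genes tested at a threshold of 0.05. Over all genes, 12.8% passed as lower and 11.2% as higher. At an unadjusted p under 0.05, 5 members were lower and 0 higher, where 22.1% and 18.6% of all genes were. The median log2 difference of the members was -0.18, and that of all genes was -0.02. With each array centred on its median in place of the 75th percentile, 3498 genes passed as higher and 2365 as lower, against 2699 and 3069, and the same count of 3 members passed as lower. In these bulk samples, fewer cells of a type and less RNA per cell cannot be told apart.

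**Figure D1:**
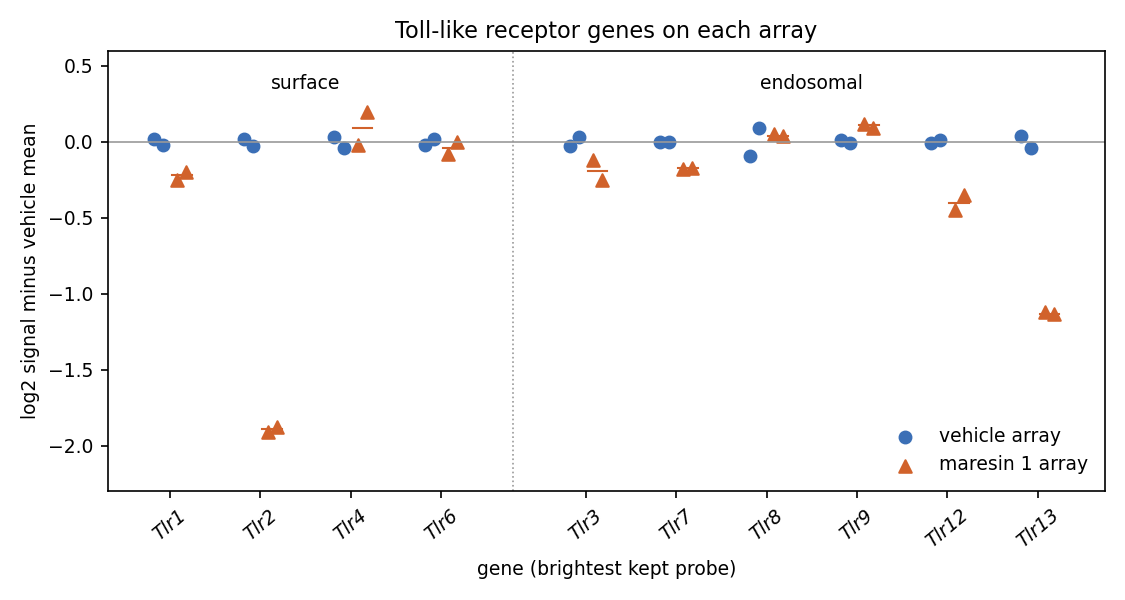
Each point is 1 array, plotted as its log2 signal minus the mean of the 2 vehicle arrays, for the 4 surface and 6 endosomal receptor genes; short lines are the means of the maresin 1 arrays. Both maresin 1 arrays lie far below both vehicle arrays for Tlr2 and Tlr13, with means 1.89 and 1.12 lower on the log2 scale, and the points of Tlr4, Tlr6 and Tlr8 overlap.

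Among the surface receptors, Tlr2 showed the largest difference of the family. Its log2 level was 1.77 and 1.72 on the vehicle arrays, against -0.16 and -0.13 with maresin 1. The maresin 1 arrays were thus both far below the vehicle arrays, and the 2 arrays of each group lay within 0.05 of each other. In signal units the readings were 3280 and 3264 with vehicle and 847 and 775 with maresin 1. The difference was -1.89 ± 0.06 (SE from limma, with n = 2 arrays in each group here and below), with a 95% interval of -2.05 to -1.74 and an adjusted p of 0.0015. The remaining signal was 27% of the vehicle level. Tlr2 was read by a single probe, so no other probe could be compared and averaging probes left its value at -1.89. Ordered from the lowest difference upward, Tlr2 had rank 21 of 24055 genes, and only 1.09% of all genes passed with a decrease of at least 2-fold, a group that held Tlr2 and Tlr13. The 14 processing alternatives gave Tlr2 values between -1.91 and -1.80, and it passed in all 14.

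The partners of TLR2 in lipoprotein recognition did not follow it to the same extent. Tlr1, whose product pairs with TLR2 to bind triacylated lipoproteins, had log2 levels of 2.44 and 2.40 on the vehicle arrays, against 2.17 and 2.22 with maresin 1. Its arrays did not overlap between groups, and the difference of -0.23 ± 0.06 (95% interval -0.38 to -0.07) missed the threshold, with an adjusted p of 0.0592. With quantile normalization it was -0.27 and passed, with an adjusted p of 0.0381. In the authors' value table it was -0.26 and passed (limma adjusted p = 0.0338). Normexp background correction with quantile normalization gave -0.28 (limma adjusted p = 0.00718), and a variance prior that follows intensity gave -0.23 (limma adjusted p = 0.00311). A further Tlr1 probe gave -0.21 ± 0.06 (limma adjusted p = 0.0675 over all probes).

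Tlr6, whose product pairs with TLR2 to bind diacylated lipoproteins, lies next to Tlr1 on chromosome 5, with no other protein-coding gene between them. Its log2 levels of 1.96 and 2.00 in vehicle and 1.90 and 1.98 in maresin 1 cultures overlapped. The difference of -0.04 ± 0.06 had a 95% interval of -0.21 to 0.13 and a limma adjusted p of 0.648. Its sign turned between alternatives, which ranged from -0.10 to 0.02.

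Within each array, the log2 ratio of Tlr2 to Tlr1 was lower by 1.67 in maresin 1 than in vehicle cultures, with a pooled SD between the arrays of a group of 0.01. The difference of Tlr2 minus that of Tlr1 was thus -1.67, and that of Tlr2 minus that of Tlr6 was -1.85 with a pooled SD of 0.05. Tlr1 against Tlr6 gave -0.18 with a pooled SD of 0.04. The ratios of the groups did not overlap for any of these 3 pairs. A further 3 pairs of endosomal receptors were chosen, like Tlr1 with Tlr6, after their values were seen: Tlr13 against Tlr7 gave -0.95, Tlr13 against Tlr9 -1.23 and Tlr8 against Tlr7 0.22. The exact permutation test over arrays (two-sided) gave p = 0.333 for each of the 6 pairs compared, and 0.333 after adjustment over them. That is the smallest p that 2 against 2 arrays allow, so the design cannot reach the threshold.

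Tlr4, which encodes the lipopolysaccharide receptor, had log2 levels of 1.76 and 1.69 on the vehicle arrays, against 1.71 and 1.93 with maresin 1. The groups overlapped, and maresin 1 replicate 2 was the highest of the 4 arrays. The difference of 0.10 ± 0.09 had a 95% interval of -0.16 to 0.35 and a limma adjusted p of 0.486. It was -0.01 to 0.20 when 1 array was left out. The other Tlr4 probe gave 0.01 ± 0.08. The interval leaves room for a change of up to 0.35 upward on the log2 scale and does not reach a decrease of the size seen for Tlr2.

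Among the endosomal receptors, Tlr13 had the largest difference. Its log2 level was 4.12 and 4.04 in vehicle and 2.96 and 2.95 in maresin 1 cultures, so that all maresin 1 values lay below all vehicle values. In signal units the brightest Tlr13 probe fell from 16696 and 16205 to 7366 and 6521. The difference was -1.12 ± 0.06, with a 95% interval of -1.29 to -0.96 and a limma adjusted p of 0.00298, which left 45.9% of the vehicle level. A further Tlr13 probe read 0.08 and 0.20 in vehicle and -0.83 and -0.92 in maresin 1 cultures, which gave -1.02 ± 0.07 and passed on its own (limma adjusted p = 0.00441 over all probes). Tlr13 had rank 200 of 24055 genes from the lowest difference, and it passed in all 14 alternatives with values between -1.19 and -1.07.

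Tlr12, which encodes a receptor for profilin of protozoan parasites, had log2 levels of 2.36 and 2.38 in vehicle and 1.92 and 2.02 in maresin 1 cultures. The groups did not overlap. The difference was -0.40 ± 0.06 (95% interval -0.57 to -0.23, limma adjusted p = 0.0202). This call was lost without any 1 of the 4 arrays: the limma adjusted p was 0.0891 without vehicle replicate 1, 0.092 without vehicle replicate 2, 0.0696 without maresin 1 replicate 1 and 0.0584 without maresin 1 replicate 2. The value itself stayed between -0.45 and -0.35. It was also lost with no filter on dim probes (limma adjusted p = 0.0594).

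Tlr7 and Tlr8, both sensors of single-stranded RNA, are neighbours on the X chromosome. Tlr7 had a log2 level of 2.71 on each vehicle array, against 2.53 and 2.54 with maresin 1. The groups were separate by a small margin, and the difference of -0.18 ± 0.05 (95% interval -0.32 to -0.03) missed the threshold (limma adjusted p = 0.084). Another Tlr7 probe gave -0.32 ± 0.08 (limma adjusted p = 0.0613 over all probes), and the third probe was well above background on 0 of 4 arrays. Tlr7 passed in 4 alternatives: with quantile normalization at -0.23 (limma adjusted p = 0.0474), in the authors' value table at -0.22 (0.0439), with normexp correction at -0.38 (0.00264) and with an intensity trend at -0.18 (0.0112). The normexp value is over 1.5 times the reported one.

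Tlr8 was dim but well above background, with log2 levels of -2.34 and -2.16 in vehicle and -2.20 and -2.21 in maresin 1 cultures. Both maresin 1 values fell between the vehicle values. The difference of 0.05 ± 0.08 had a 95% interval of -0.17 to 0.27 (limma adjusted p = 0.693), and its sign turned to -0.04 without vehicle replicate 1. Tlr3, which encodes the sensor of double-stranded RNA, was also dim, with -1.67 and -1.61 in vehicle and -1.76 and -1.89 in maresin 1 cultures. Its groups did not overlap, and the difference of -0.18 ± 0.07 (95% interval -0.38 to 0.01) did not pass (limma adjusted p = 0.14). The other Tlr3 probe gave -0.33 ± 0.08, and with the mean of both probes Tlr3 passed at -0.26 (limma adjusted p = 0.0406). That was the only 1 of 14 alternatives in which it passed: normexp gave -0.07 (limma adjusted p = 0.446), and the value without maresin 1 replicate 2 was -0.12 (0.356).

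Tlr9, which encodes the receptor for unmethylated CpG DNA, was the only member with both maresin 1 arrays above both vehicle arrays. Its log2 levels were 1.38 and 1.36 in vehicle and 1.49 and 1.46 in maresin 1 cultures. The difference of 0.10 ± 0.05 (95% interval -0.05 to 0.25) did not pass (limma adjusted p = 0.233). Across the family, 6 members had both maresin 1 arrays below both vehicle arrays and 1 had them above, where 36.8% and 32.7% of all genes did. The signal of 2 further family genes outside the list was dim: Tlr5, the flagellin receptor gene, was well above background on 0 of 4 arrays, and Tlr11 on 1 of 4. Of the 15 kept probes of the 10 members, 4 passed as lower (limma, adjusted over all probes), where 12.4% of all probes did.

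**Figure D2:**
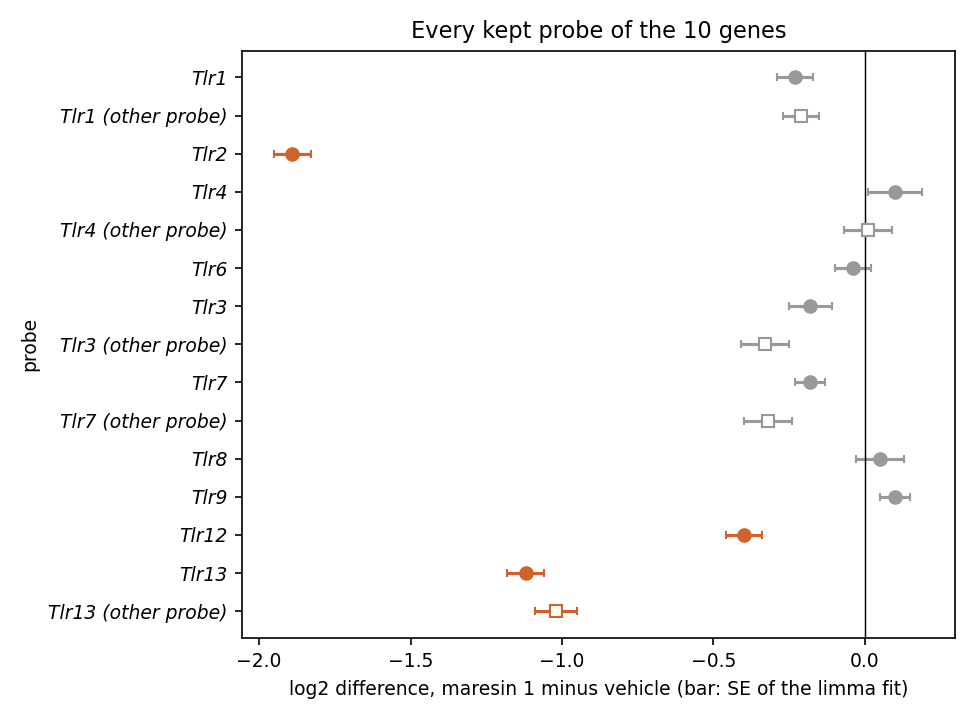
Points are the log2 differences of every kept probe of the 10 genes with the SE of the limma fit; filled circles are the brightest probe of a gene, open squares its other probes, and orange marks an adjusted p under 0.05 over all probes. Tlr13's probes sit at -1.12 and -1.02, those of Tlr1 at -0.23 and -0.21, and those of Tlr7 at -0.18 and -0.32.

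Surface and endosomal receptors had similar medians. The median difference was -0.13 over the 4 surface genes and -0.18 over the 6 endosomal genes, which differ by 0.05, less than the pooled SD of this contrast between arrays of a group (0.06). Each class held 1 gene with a large decrease, Tlr2 and Tlr13. Without these, the medians were -0.04 and -0.18. The members are few and are not replicates, so this contrast has no test. It ranged from -0.02 to 0.11 when 1 array was left out and was 0.12 with the mean of each gene's probes.

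**Figure D3:**
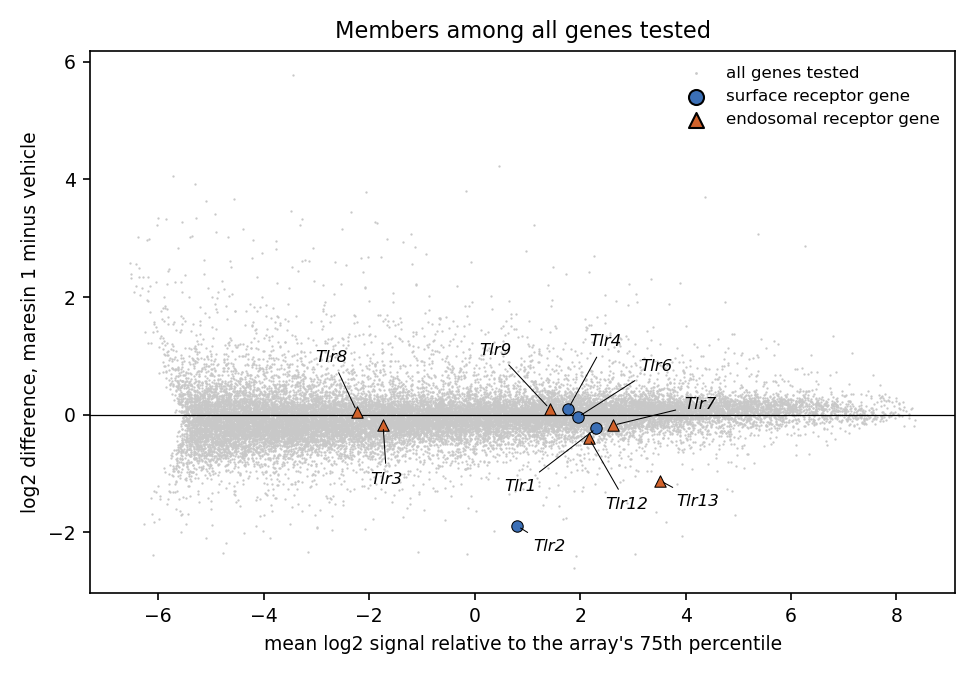
Each grey dot is 1 of the 24055 genes tested, placed by its mean log2 signal relative to the array's 75th percentile and by its log2 difference; circles are surface and triangles endosomal receptor genes. Tlr2 (-1.89) and Tlr13 (-1.12) have ranks 21 and 200 from the lowest difference, and the other 8 members lie above them. Some genes of a signal near that of Tlr13 fell further, such as Clec4d (-1.82).

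The genes that deliver ligands to these receptors, or carry the receptors to the endosome, went both ways. Of 19 measured co-receptor, delivery and trafficking genes, 4 rose, 6 fell and 9 did not pass, with a median of -0.11. Among all genes tested, 11.2% passed as higher and 12.8% as lower. Itgam, the integrin alpha chain of a complement receptor, fell by 0.81 ± 0.09 on the log2 scale, and Msr1, a scavenger receptor gene, fell by 0.75 ± 0.06, and these 2 held their call without any single array. The call of Itgam was lost with no filter on dim probes (limma adjusted p = 0.0525). Cd14 and Ly96, the helpers of TLR4 introduced above, passed as lower. In the same list, Lbp passed as higher, by 0.37 ± 0.08 (limma adjusted p = 0.0388). The call of Lbp was also lost on leaving out at least 1 of the arrays. Cd14 was 3.69 and 3.71 in vehicle and 3.47 on each array with maresin 1, a difference of -0.23 ± 0.05 (limma adjusted p = 0.0494). Ly96 was 0.62 and 0.64 in vehicle and 0.22 and -0.08 in maresin 1 cultures, a difference of -0.56 ± 0.12 (limma adjusted p = 0.0365). The call of Cd14 was lost without any 1 of the 4 arrays, with an adjusted p up to 0.196, with the array median in place of the 75th percentile (0.0916), without the filter on dim probes (0.0594) and with the mean of its probes (0.0563). That of Ly96 was lost on leaving out vehicle replicate 1, vehicle replicate 2 or maresin 1 replicate 2, with an adjusted p up to 0.121. It was also lost with the mean of the gene's probes, where the difference was -0.31 (limma adjusted p = 0.054), and without the filter on dim probes (0.0604).

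The chaperone of the endosomal receptors did not pass the test. Unc93b1, which escorts the endosomal receptors out of the endoplasmic reticulum, differed by -0.06 ± 0.07 (95% interval -0.25 to 0.14, limma adjusted p = 0.588). Slc15a4, an endolysosomal transporter needed for TLR7 and TLR9 responses, fell by 0.47 ± 0.06, and Cd36, a scavenger receptor gene that assists TLR2 with TLR6, rose by 0.32 ± 0.06. Both calls were lost without any 1 of the 4 arrays (limma adjusted p up to 0.0672 and 0.123). Among 11 measured endosomal proteases and nucleases, 2 rose, 2 fell and 7 did not pass, where 11.2% of all genes rose and 12.8% fell. The rises were those of Ctsk (1.09 ± 0.06) and Ifi30 (0.67 ± 0.07), a cathepsin and a lysosomal thiol reductase. The nuclease genes Pld4 (-0.50 ± 0.08) and Pld3 (-0.35 ± 0.07), whose products degrade the nucleic acid ligands, passed as lower. The call of Pld4 was lost on leaving out vehicle replicate 1, vehicle replicate 2 or maresin 1 replicate 2 and that of Pld3 without any 1 of the 4 arrays (limma adjusted p up to 0.0899 and 0.138).

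The shared signalling genes moved little, with log2 differences from -0.31 to 0.35. For scale, 11.2% of all genes passed as higher and 12.8% as lower. Of 27 measured adaptors and proximal kinases, 1 rose, 3 fell and 23 did not pass, and each of the 4 calls was lost without any 1 of the 4 arrays. Myd88 had levels of 3.96 and 3.93 in vehicle and 3.88 and 3.91 in maresin 1 cultures, and its difference of -0.05 ± 0.06 had a 95% interval of -0.20 to 0.10 (limma adjusted p = 0.528). Ticam1 differed by 0.07 ± 0.06, with an interval of -0.09 to 0.22 (limma adjusted p = 0.427). The 4 genes that passed were the ubiquitin ligase gene Traf6 (0.35 ± 0.06), the kinase genes Ikbkb (-0.27 ± 0.05) and Irak1 (-0.24 ± 0.06), and Ecsit (-0.24 ± 0.05), whose limma adjusted p went up to 0.119, 0.141, 0.199 and 0.187 without 1 array. With the array median in place of the 75th percentile, the calls of Ikbkb, Irak1 and Ecsit were lost as well (limma adjusted p = 0.0552, 0.088 and 0.0817).

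Transcription factors downstream of the receptors were more often higher than lower. Of 16 measured, 7 rose, 1 fell and 8 did not pass, with a median of 0.19, where the median of all genes was -0.02. The shares of all genes were 11.2% higher and 12.8% lower. Cebpd rose by 1.02 ± 0.09 and Rel, an NF-kappaB subunit gene, by 0.80 ± 0.08, and both held their call without any single array. None of the other calls in this list held whichever array was left out. Irf8 rose by 0.58 ± 0.07 and Nfkb1 by 0.44 ± 0.06. The call of Irf8 was lost on leaving out vehicle replicate 1, vehicle replicate 2 or maresin 1 replicate 2 (limma adjusted p up to 0.06) and that of Nfkb1 without any 1 of the 4 arrays (up to 0.0788).

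Of 23 measured negative regulators of the pathway, 6 rose, 2 fell and 15 did not pass, and 5 of the 8 calls held whichever array was left out. Among all genes tested, 11.2% rose and 12.8% fell. The 2 negative regulators that fell were Irak3, which encodes an inhibitory kinase-like protein that acts below MyD88, and Inpp5d, a lipid phosphatase gene (-0.48 ± 0.06). The Irak3 log2 level was 1.56 and 1.52 on the vehicle arrays, against 0.32 and 0.22 with maresin 1. The groups were well apart, with a difference of -1.27 ± 0.07 (limma adjusted p = 0.00287), a 2.41-fold decrease. Tnip3, an inhibitor of NF-kappaB activation, rose by 1.43 ± 0.07, Atf3, a repressor of inflammatory genes, by 1.05 ± 0.07, and Socs3, a cytokine signalling inhibitor gene, by 0.98 ± 0.06.

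Genes that these receptors can induce were higher in 14 of 28 measured cases and lower in 3, while 11 did not pass. Their median was 0.23, and of all genes 11.2% passed as higher and 12.8% as lower. Nos2 rose by 1.94 ± 0.06, the cyclooxygenase gene Ptgs2 by 1.28 ± 0.07, the interferon gene Ifnb1 by 1.26 ± 0.07 and the chemokine gene Cxcl9 by 1.06 ± 0.06. The 3 that fell were the cytokine genes Il1b (-0.56 ± 0.05) and Tnf (-0.43 ± 0.06) and the chemokine gene Ccl3 (-0.37 ± 0.06). These genes respond to many other stimuli, and the labels name no Toll-like receptor ligand in the cultures. In the target list, 9 of the 17 calls held whichever array was left out.

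Other pattern receptors fell alongside Tlr2 in part. Of 17 measured, 7 fell, 3 rose and 7 did not pass, with a median of -0.18, where 12.8% of all genes fell and 11.2% rose. The C-type lectin genes Clec4n (-2.06 ± 0.09), Clec4d (-1.82 ± 0.06) and Clec4e (-1.24 ± 0.06), receptors for fungal and mycobacterial glycolipids and glycans, fell, as did the formyl peptide receptor genes Fpr1 (-2.61 ± 0.12) and Fpr2 (-2.37 ± 0.10). Of the genes of cytosolic nucleic acid sensing, Sting1 (0.52 ± 0.06, limma adjusted p = 0.0104) and Zbp1 (0.28 ± 0.06, 0.044) rose. Ifih1 (0.24), Cgas (0.24), Ddx58 (0.07), Dhx58 (0.02) and Aim2 (-0.18) did not pass. The calls of Clec4n, Clec4d, Clec4e and Fpr2 held whichever array was left out, but not every other call of the list did.

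**Figure D4:**
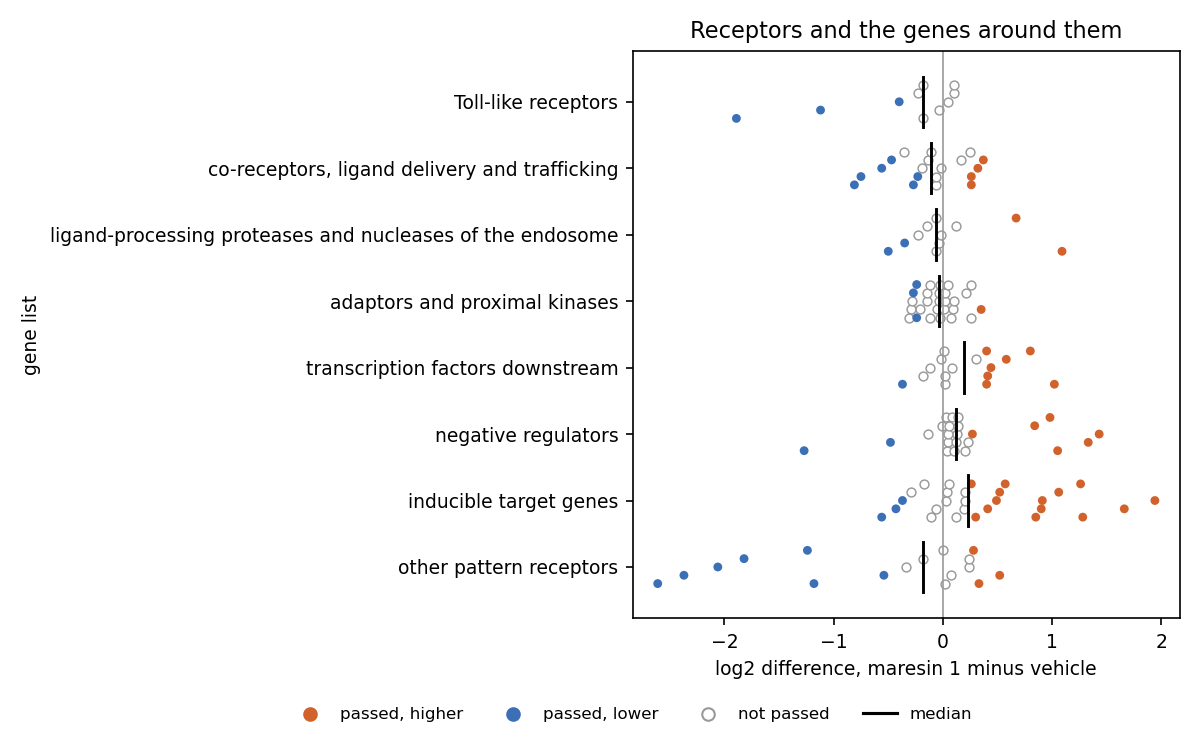
Each point is the log2 difference of 1 measured gene of the Toll-like receptor family or of a list of related genes; filled points passed the test (orange higher, blue lower), open points did not, and black bars are medians. The receptors' median is -0.18, that of the adaptors and kinases -0.04 and that of the inducible targets 0.23.

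The genes whose values over the 4 arrays were most like those of Tlr2, by Euclidean distance after centring each gene on its mean among 13496 named genes, were Fpr-rs6 (distance 0.0775), Aqp8 (0.0795), Clec4d (0.0884), Clec4b1 (0.135) and Abcc3 (0.136). Their differences lay between -1.94 and -1.76. For Tlr13 they were Stap1 (0.0702), Arhgef4 (0.0806), Pilra (0.0897), C5ar1 (0.0912) and Engase (0.0943), with differences between -1.15 and -1.04. With 4 arrays in 2 groups, this likeness is mostly a likeness in the size of the difference.

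Several Toll-like receptors are also expressed by other cells that such cultures can hold, so markers of those cells are given here. The summed linear level of the 5 measured neutrophil markers was 1.83 to 1.86 in vehicle and 1.89 to 1.91 in maresin 1 cultures, with Elane at -0.14 ± 0.10 and S100a9 at 0.26 ± 0.10 (limma adjusted p = 0.373 and 0.138), and Ly6g did not pass the filter on dim probes. Of the monocyte markers, Ccr2 fell (-0.70 ± 0.06), while Ly6c2 differed by -0.04 ± 0.07 (limma adjusted p = 0.69). Of the 8 Kupffer cell markers 1 fell, Adgre1 (-0.67 ± 0.06), and their sum was 894 to 928 and 823 to 840. Marco, the brightest of the 8, differed by -0.19 ± 0.06 (limma adjusted p = 0.0905). Of the 5 plasmacytoid dendritic cell markers, 2 were higher, Klk1 (1.49 ± 0.14) and Tcf4 (0.54 ± 0.09). The 5 summed to 47.1 to 49.7 and 47.7 to 49.2. Siglech, the brightest of these 5, differed by -0.28 ± 0.09 (limma adjusted p = 0.0964). It passed as lower with quantile normalization (-0.39), normexp correction (-0.37), the authors' value table (-0.37) and an intensity trend. The markers of B cells (5 measured, 3 higher) summed to 1.93 to 2.17 and 3.43 to 3.63. Conventional dendritic cell markers (5 measured, 3 higher) summed to 4.20 to 4.33 and 7.88 to 8.13. The brightest markers of these last 2 types, Cd79b and Clec9a, rose by 0.74 ± 0.08 and 0.99 ± 0.06. T and NK cell markers (5 measured, 3 lower) summed to 6.31 to 6.37 and 5.09 to 5.20, with Cd3g at -0.33 ± 0.06. None of the T and NK cell calls held whichever array was left out, while those of Adgre1, Ccr2, Cd79b and Clec9a did.

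For non-immune cells, the 4 sinusoidal endothelial markers summed to 41.4 to 42.6 in vehicle and 49.1 to 50.3 in maresin 1 cultures. Of these 4, 2 were higher, Stab2 (0.47 ± 0.07) and Pecam1 (1.15 ± 0.06). The call of Stab2 was lost on leaving out vehicle replicate 1, vehicle replicate 2 or maresin 1 replicate 2. That of Pecam1 held whichever array was left out. Clec4g (-0.18 ± 0.07) and Lyve1 (-0.16 ± 0.05) did not pass. The 4 hepatocyte markers (1 lower, Ttr at -0.41 ± 0.06, with the brightest, Alb, at -0.23 ± 0.09) summed to 18.2 to 19.6 and 15.7 to 16.8. The 4 stellate cell markers (1 lower, Dcn at -0.37 ± 0.06) summed to 3.83 to 3.93 and 2.96 to 3.0. The call of Dcn was lost without any 1 of the 4 arrays, and that of Ttr without at least 1 of them. The part of all these cell types in the receptor differences was not tested.

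**Figure D5:**
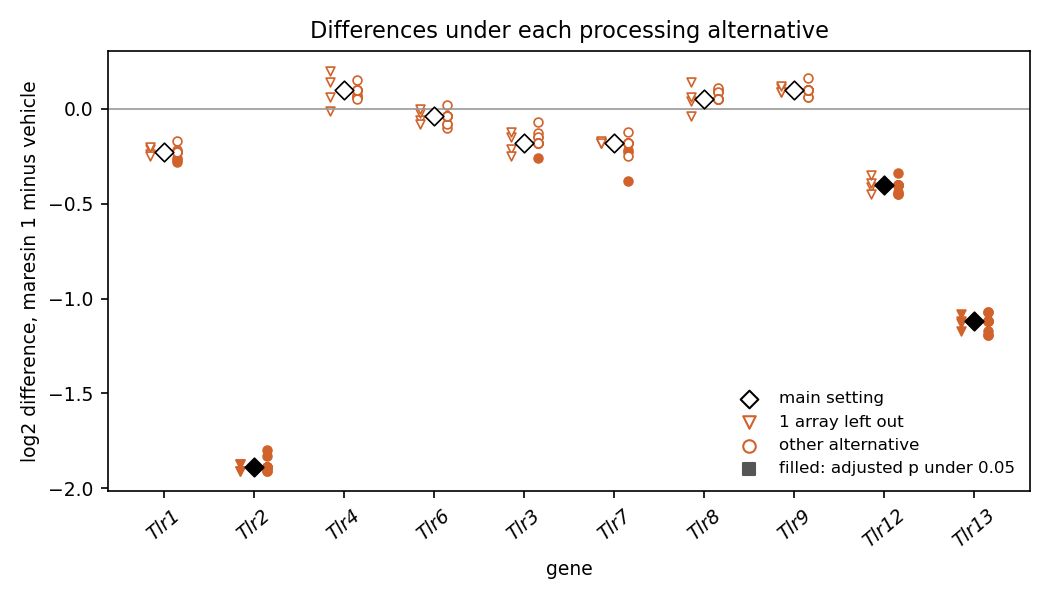
Diamonds are the reported log2 differences, triangles the values with 1 array left out and circles the values under the other alternatives; filled symbols have a limma adjusted p under 0.05. Tlr2 and Tlr13 are filled throughout, Tlr12 is open when an array is left out, and Tlr4, Tlr6, Tlr8 and Tlr9 are open throughout.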

How the data were processed

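The authors read each one-colour Agilent array with Feature Extraction 11.0.1.1, per the submitters' processing notes, and the deposited intensity is, per the file headers, corrected for background and spatial trend within the array and not between arrays. The deposited value table holds log2 values of 29710 probes, whose columns correlated with the log2 signal of the same array at r = 1 and had a median of 9.07. Its scale was inferred from the values, and it served only as an alternative.

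Each array's 75th percentile was subtracted from the log2 processed signal. Further steps left out control and outlier spots, averaged spots of a probe, and kept probes well above background on both arrays of a group (31128 probes). Accessions were matched without version to RefSeq genes of GRCm38.p6 (58.3% of probes), and each gene was taken at its brightest kept probe. The 10 members had 15 kept probes of 16. Tests were two-sided and used limma 3.58.1 (lmFit, eBayes) under R 4.3.3, with 2.27 prior degrees of freedom, tested on simulated data. Figures used matplotlib 3.10.9 in Python 3.11.15. Members and gene lists were chosen with earlier results of these data known. Named genes were all members, up to 4 genes per list with the smallest p, fixed helpers and adaptors (Cd14, Ly96, Unc93b1, Myd88, Ticam1, Irak3), the brightest marker per cell type and Clec4f, and the 5 genes most like Tlr2 and Tlr13. Il1b, Tnf, Ccl3, Fpr1, S100a9, Ttr, Ccr2, Adgre1 and Inpp5d were named after their values were seen. So were Lbp, Pecam1, Clec4g, Lyve1, Klk1, Tcf4 and the nucleic acid sensor genes. The summed level of the monocyte markers is not reported here. The normexp alternative (offset 50) had been meant for the mean spot signal and used the median one. Motifs were searched in the 250 bases before each start site. Replicate numbers did not pair the arrays (r = -0.0292 between the groups' replicate differences across genes), so no block was used.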

Additional observations from a re-analysis of the deposited data

How the results depend on the processing

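Of the results above, the calls of Tlr2 and Tlr13 held in all 14 alternatives, and that of Tlr12 in 9. The count of members lower was 5 with quantile normalization, 5 with normexp and quantile normalization, 5 in the authors' value table and 5 with an intensity trend, the added members being Tlr1 and Tlr7, 4 with the mean of each gene's probes (Tlr3 added), 2 with no filter on dim probes and 2 without any 1 array. The count of members higher was 0 in all 14. Over all genes, no filter on dim probes gave 1087 higher and 972 lower genes, the intensity trend 4525 and 4670, and the replicate block 1766 and 1926. The block, in which replicate numbers share only a number, left 3 members lower. Leaving out any 1 of the 4 arrays gave 1011 to 1336 higher and 916 to 1491 lower genes. The surface minus endosomal median was 0.12 with the mean of each gene's probes, and the cause was not tested. The tally and the lost calls that follow cover only genes named by rule, not those named after their values were seen. Over the named genes and alternatives, 772 values kept their side of the threshold, 91 lost it, 19 gained it and 0 reversed a call. With no filter, which tests more probes, the calls of Itgam, Cd36, Pld4, Pld3, Traf6, Ikbkb, Ecsit, Irak1, Nfkb1, Cd14, Ly96, Cd3g and Stab2 were lost, and all but those of Itgam, Pld4, Nfkb1 and Stab2 were lost with the block too. The median of all genes moved from -0.02 to -0.14 with no filter. Precision is limited by 2 arrays per group, and Tlr3 and Tlr8 were the dimmest members, at 183 to 323 intensity units where the dimmest probe well above background read 16.0 to 20.6.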
